A study of Homo sapiens with 6 samples.

Results

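The very long protein-coding genes described here are those whose annotated span, from gene start to gene end, was at least 200000 bases and whose FPKM (reads scaled by exon length and by library size) was at least 1 in at least 3 of 6 libraries. They numbered 666 of the 12258 genes tested, of the 10338 protein-coding genes tested and of the 58735 genes listed. Another 815 protein-coding genes of that span did not reach the level. Poly-A enriched RNA came from A375, a human malignant melanoma cell line. The group labelled PAL received a Ringer's lactate solution that had been activated by low-temperature plasma, and the group labelled control did not. Each group had 3 libraries of 15064971 to 17711389 reads assigned to genes. Neither the dose and duration of exposure nor the origin of the replicates is stated in the labels, so a p-value here speaks for the scatter of these libraries, and that scatter may be technical.

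The genes were chosen by span and by FPKM level in the same libraries that are compared, so the level itself is described and not tested. Of the 666 genes, 622 reached 1 FPKM in all 6 libraries and 36 in some libraries of both groups. In 7 genes the rule was met through the control libraries alone, and in 1 gene, SLX4IP, through the PAL libraries alone. Such genes had to differ in the direction that let them pass: 3 of the 7, DAPK1, GCNT1 and ITGA9, were called lower in PAL, and SLX4IP was called higher. The genes just inside the span threshold were CPVL at 200220 bases, RFTN1 at 200452 and LIPA at 200988, and just outside it lay LRCH1 at 199872 and NEDD9 at 199050. By the third highest FPKM of the 6 libraries, PEAK1 at 1.00, RYR2 at 1.01 and DYNC1I1 at 1.01 were just inside, while FREM2 at 0.979, ST6GALNAC3 at 0.972 and DNM3 at 0.971 were just outside. Giants of the annotation such as DMD, with a mean of 0.375 FPKM, and the fragile site gene FHIT, with 0.00764, were below the level.

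Very long genes owe their size to introns, which RNA polymerase II must cross in full before a complete transcript is released. Their transcription can take hours, so their messenger RNA follows a stimulus later than that of short genes, and it depends on pause release by the kinase CDK9, on processive elongation with CDK12, on topoisomerases that relieve torsion and on the suppression of early polyadenylation sites inside introns. Many code for large scaffolds of adhesion, polarity and the cytoskeleton, for regulators of small GTPases and for receptors, and several span common fragile sites, regions that break under replication stress. Of 10 melanocyte lineage markers, 5 reached 1 FPKM, led by SOX10 at 86.4 to 108, while the pigment genes PMEL, MLANA, TYR, DCT and TYRP1 were at or near 0, TYR in all 6 libraries. The melanocyte markers summed to 100 to 104 FPKM in control and 119 to 120 in PAL, a difference carried by SOX10, at 86.4 to 89.7 in control and 107 to 108 in PAL, while S100B was lower in PAL, at 3.89 to 4.24 against 4.52 to 5.54. Of 4 keratinocyte markers, KRT10 and KRT14 reached 1 FPKM, and the list summed to 31.5 to 36.4 in control and 30.8 to 33.4 in PAL. Of the immune markers 0 of 3 reached 1 FPKM and of the endothelial ones 0 of 2; the part of these levels in the results was not tested. HSPA6, a stress-induced member of the HSP70 family, averaged 1882 ± 171 FPKM in the libraries labelled control and 40.4 ± 28.6 FPKM in those labelled PAL (mean ± SD, n = 3). Labels were used as given, an exchange of labels was not tested, and it would turn every direction given here.

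The promoters of the 2 largest falls and of 2 of the 3 largest rises on the log2(FPKM + 1) scale are shown first. Each runs from 250 bases before to 50 bases after the RefSeq gene start in GRCh38.p14, read 5′ to 3′ on the gene's strand, with matches to the searched motifs in capitals. TENT5A lies at chr6:81752632-81752931 on the minus strand, DAPK1 at chr9:87497617-87497916 on the plus strand, RUNX1 at chr21:34888650-34888949 on the minus strand and BCAR3 at chr1:93681788-93682087 on the minus strand.
TENT5A: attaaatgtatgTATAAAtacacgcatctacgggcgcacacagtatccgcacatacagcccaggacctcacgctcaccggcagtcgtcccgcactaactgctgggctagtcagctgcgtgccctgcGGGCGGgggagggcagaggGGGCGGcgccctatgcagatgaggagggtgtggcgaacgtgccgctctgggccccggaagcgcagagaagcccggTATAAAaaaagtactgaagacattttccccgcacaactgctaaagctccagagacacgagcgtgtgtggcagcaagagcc
DAPK1: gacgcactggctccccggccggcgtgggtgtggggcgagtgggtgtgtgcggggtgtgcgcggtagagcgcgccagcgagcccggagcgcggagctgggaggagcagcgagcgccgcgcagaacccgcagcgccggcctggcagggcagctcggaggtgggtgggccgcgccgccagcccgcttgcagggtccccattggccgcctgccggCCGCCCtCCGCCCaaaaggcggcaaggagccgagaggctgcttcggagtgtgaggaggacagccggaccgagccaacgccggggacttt
RUNX1: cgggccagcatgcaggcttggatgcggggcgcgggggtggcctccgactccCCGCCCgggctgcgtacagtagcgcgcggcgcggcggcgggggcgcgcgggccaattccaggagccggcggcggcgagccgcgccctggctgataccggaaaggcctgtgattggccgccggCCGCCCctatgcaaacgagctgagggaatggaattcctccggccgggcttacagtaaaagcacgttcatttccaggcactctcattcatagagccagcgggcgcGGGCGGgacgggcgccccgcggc
BCAR3: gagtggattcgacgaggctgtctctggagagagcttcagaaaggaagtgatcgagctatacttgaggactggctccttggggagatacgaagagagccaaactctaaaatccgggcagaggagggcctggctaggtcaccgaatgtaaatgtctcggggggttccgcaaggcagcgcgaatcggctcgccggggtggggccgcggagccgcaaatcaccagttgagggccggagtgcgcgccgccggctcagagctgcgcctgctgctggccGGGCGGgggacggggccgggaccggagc
The motifs, searched on both strands, were the cyclic AMP response element TGACGTCA, the AP-1 site TGANTCA, the GC box GGGCGG, the heat shock element GAANNTTC and the TATA box TATAAA. The TENT5A window held 2 TATA boxes and 2 GC boxes, and the RefSeq start in it lay 92 bases from the 5′ end of the annotated gene. The DAPK1, RUNX1 and BCAR3 windows held 2, 3 and 1 GC boxes and none of the other motifs. The RefSeq start of RUNX1 lay 1115967 bases inside the annotated gene and that of BCAR3 165312 bases inside, so both annotated genes begin far upstream of the window shown.

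RefSeq promoters were matched for 549 of the 666 genes by symbol. A GC box was in 67.6% of them, against 44.6% of all 27305 promoters of the same length, and their median GC content was 67.0% against 58.3%. The TATA box was in 6.01% against 12.0%, the AP-1 site in 4.74% against 7.76%, the heat shock element in 5.10% against 6.87% and the cyclic AMP response element in 2.73% against 1.98%. Among the 18 matched genes called higher in PAL, 77.8% held a GC box, and among the 86 called lower 62.8%. The heat shock element was in 2 of the 18 and 3 of the 86, too few to compare. The 27305 promoters include genes that were not tested, so the very long genes are not set against expressed genes alone. A match is a string in this window and not a bound site.

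Compared with the other protein-coding genes tested, the very long genes had more exons and lower levels. Their median span was 284965 bases against 28980, their median exonic length 8553.5 bases against 4901.5, and the longest intron of the principal transcript, the one that the GENCODE annotation marks as main, had a median of 91495 bases against 8055. The principal transcript had a median of 17 exons, from 2 to 107, against 9. The median of mean FPKM was 3.33, from 0.846 to 145, against 7.87 in other protein-coding genes. Each very long gene rested on a median of 480.5 reads per library, from 42.2 to 13217. An annotated gene was nested inside 587 of them, but a tested gene inside 74 only, and 163 overlapped another tested gene, whose reads may not be told apart where strand was not used in counting. Of those 163, 5 were called higher and 29 lower in PAL, and of the 503 without such overlap 15 and 76.

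In the comparison of PAL with control, rises were scarce among very long genes. Of the 666, 20 were called higher in PAL (3.00%) at an adjusted p below 0.05, against a background of 11.4% over all genes tested and 11.6% over protein-coding genes. Another 105 were called lower (15.8%), against 14.5% and 16.1%, a share near the background with this scaling and test. With voom on recovered reads the falls were 27.5% against a background of 18.1%, and with no filter 8.11% against 4.53%. With TPM they were 6.76% against 9.54%, and with plain totals 6.46% against 9.22%. In either direction 25.9% of all genes tested and 27.7% of protein-coding genes were called. The test was limma on log2(FPKM + 1), adjusted over the 12258 genes, and 215 of the 666 were below an unadjusted p of 0.05. On that scale the largest fall was TENT5A and the largest rise STARD13. Most differences were small: 120 of the 125 called genes differed by less than 0.5 on the log2(FPKM + 1) scale, and on that scale 0 rose and 1 fell at least 2-fold.

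The 3 libraries of each group did not overlap in 62 of the very long genes with PAL higher (9.31%) and in 247 with PAL lower (37.1%), against a background of 21.4% and 23.6% over all genes tested. Among them were all 125 called genes. A lack of overlap given below for a called gene is therefore no support apart from its call. The median difference, PAL minus control, was -0.06 on the log2(FPKM + 1) scale, with quartiles of -0.14 and 0.02, and 197 of the 666 lay above 0. In the 9672 other protein-coding genes the median was 0.003, with 12.2% called higher and 16.2% lower.

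The split of calls depended on the scaling of the libraries, while the median stayed below that of all genes tested. Of the called genes, 16.0% were higher in PAL with the deposited FPKM, 26.1% with quantile normalization, 51.6% with TPM and 55.7% with plain read totals, where 54 were called higher and 43 lower and the median difference turned to 0.004. All genes moved with the scaling: on plain totals 25.3% of all genes tested were called higher and 9.22% lower, with a median of 0.075. The members' median minus that of all genes tested was -0.08 to -0.06 in 20 fits that differed in scaling, filter, model or libraries, and the share of very long genes called higher was below the background in 20 of 20. A scale factor per library moves all genes nearly alike, so this difference of medians could hardly respond to TPM or plain totals. A changed variance model or a replicate block could not move it at all, so the 20 fits are not 20 separate checks. Leaving out 1 library gave 8, 7 and 13 rises and 48, 41 and 64 falls without PAL replicates 1, 2 and 3. It gave 10, 9 and 11 rises and 57, 45 and 92 falls without control replicates 1, 2 and 3.

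Of the pairs of 1 control and 1 PAL library, those numbered 3 lay closest. For each very long gene the deviation of a library from the mean of the 6 was taken on the log2(FPKM + 1) scale, and the median over the genes was 0.04, 0.04 and 0.01 in control replicates 1, 2 and 3. It was -0.03, -0.04 and -0.02 in PAL replicates 1, 2 and 3. The groups did not overlap, and replicate 3 stood closest to 0 in either group. Without these 2 libraries, 6 of the genes were called higher and 52 lower, against 7.66% and 10.9% of all genes tested, and the median was -0.08.

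The summed share of reads did not separate the groups. Reads of the 666 genes made up 3.45%, 3.47% and 3.36% of assigned reads in control replicates 1, 2 and 3 and 3.45%, 3.40% and 3.46% in PAL. The means were 3.43% ± 0.0572 and 3.44% ± 0.0311 (SD, n = 3), and the groups overlapped. The median FPKM of the genes was 3.47, 3.57 and 3.36 in control and 3.27, 3.29 and 3.27 in PAL, or 3.47 ± 0.109 against 3.28 ± 0.00763, and did not overlap. The library size behind the deposited FPKM was 0.980 to 0.984 of the read total in control and 1.04 to 1.05 of it in PAL, so plain totals and FPKM place the groups differently. In such bulk RNA, fewer cells with a transcript and less transcript per cell cannot be told apart.

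The share of rises fell with span over all protein-coding genes, and the very long genes formed its low end. Rises made up 22.8% of the 2001 genes under 10000 bases, 16.1% from 10000 to 20000, 9.95% from 20000 to 50000, 6.19% from 50000 to 100000 and 3.53% from 100000 to 200000. From 200000 to 500000 bases 17 of 582 genes rose (2.92%), and at 500000 bases or more 3 of 84 (3.57%). With the deposited FPKM the share of falls had no such slope: it was 15.0% in the shortest bin, 17.8% from 50000 to 100000 bases, 16.0% (93 genes) from 200000 to 500000 and 14.3% (12 genes) above that. Falls did slope with other settings, and not in 1 direction: from the shortest bin to the 2 longest they went from 16.1% up to 27.1% and 29.8% with voom, from 12.6% down to 6.87% and 3.57% with plain totals, from 12.8% to 7.04% and 4.76% with TPM, and from 13.2% to 8.25% and 4.76% without the libraries numbered 3. The median difference passed from 0.07 in the shortest bin to -0.06 and -0.08 in the 2 longest. With plain read totals the rises went from 44.0% in the shortest bin to 8.42% and 5.95% in the 2 longest, with voom on reads from 25.4% to 4.98% and 5.95%, and without the libraries numbered 3 from 16.3% to 0.859% and 1.19%. Across these bins the median of mean FPKM also fell, from 11.7 to 2.65, so the shares were also read at matched level.

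**Figure D1:**
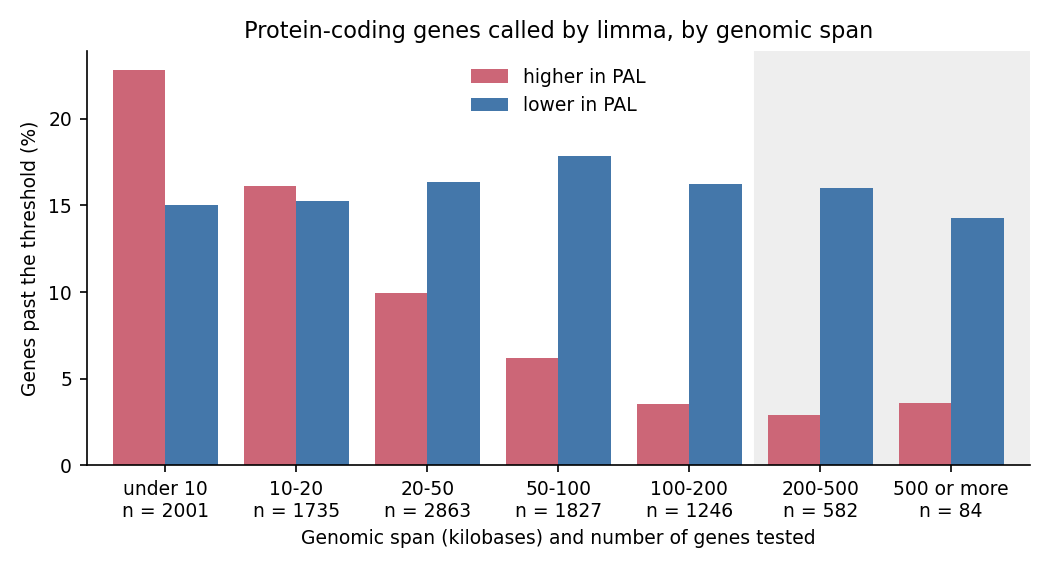
Share of protein-coding genes called higher or lower in PAL by limma (vertical axis, percent) in bins of genomic span (horizontal axis, kilobases), with the number of genes in each bin. Rises went from 22.8% in the shortest bin to 2.92% and 3.57% in the 2 longest, while falls stayed between 14.3% and 17.8% with the deposited FPKM, but went up to 29.8% with voom and down to 3.57% with plain totals and 4.76% with TPM in the longest bin.

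**Figure D2:**
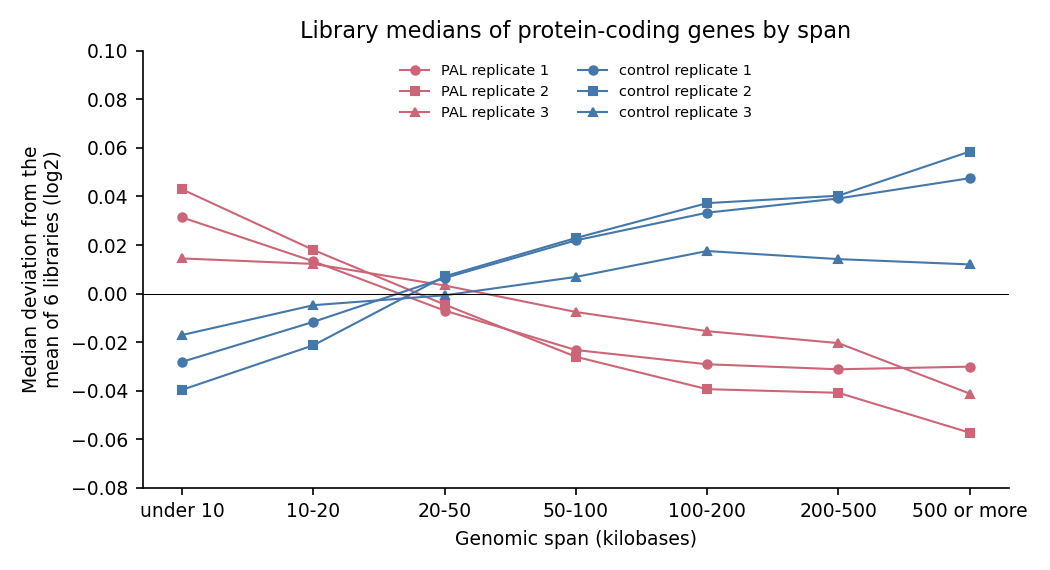
Median deviation of each library from the mean of 6 libraries on the log2(FPKM + 1) scale (vertical axis) for protein-coding genes in bins of span (horizontal axis, kilobases), 1 line per library. Over most bins control lines run upward and PAL lines downward with span, and in the bin from 200000 to 500000 bases the libraries numbered 3 lie nearest to 0 in their groups; with plain read totals the median difference of the very long genes was 0.004.

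At matched level, rises were scarcer among very long genes than among other protein-coding genes in each of 5 classes of mean FPKM. Below a mean of 2 FPKM, 1.08% of the very long genes rose against 5.47% of other protein-coding genes. The shares were 2.09% against 11.4% from 2 to 5 FPKM, 3.85% against 13.3% from 5 to 10, and 11.1% against 14.3% from 10 to 20. In that last class the very long genes that rose were 7 of 63. There the groups did not overlap, with PAL higher, in 22.2% against 23.4%. At 20 FPKM or more 0 of 22 very long genes rose, by limma, against 14.1%. The falls in the 5 classes numbered 18 of 186, 30 of 239, 37 of 156, 13 of 63 and 7 of 22. As shares these were 9.68%, 12.6%, 23.7%, 20.6% and 31.8%, against 8.05%, 11.9%, 15.1%, 20.4% and 22.6% of other protein-coding genes. These shares lay furthest apart from 5 to 10 FPKM and at 20 FPKM or more, where the last rests on 22 very long genes, and the difference was not tested. The classes match level but not depth, as the very long genes had more median reads per library in each class. These were 986 against 643 from 5 to 10 FPKM and 4196 against 2594 at 20 FPKM or more. The median difference lay between -0.08 and -0.05 in each class.

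Exon number separated the very long genes among themselves more than span did. Of the 36 with at least 51 exons in the principal transcript, 19 were called lower (52.8%) and 0 higher by limma, with a median of -0.18 and 94.4% of differences below 0. Of the 69 with at least 31 and under 51 exons 17 were lower (24.6%) and 0 higher, and of the 149 with at least 21 and under 31 exons 29 were lower and 2 higher. With at least 11 and under 21 exons 27 of 247 were lower and 10 higher, with at least 6 and under 11 exons 9 of 127 and 8, and with fewer than 6 exons 4 of 38 and 0. The medians went from 0.04 through -0.02, -0.04, -0.10 and -0.15 to -0.18. Spearman's rho with the log2 difference across the 666 genes, which share the same 6 libraries, was -0.43 for exon number, -0.18 for exonic length, -0.09 for span and 0.18 for the longest intron. Over the 10338 protein-coding genes tested, where span is not cut, the order differed. There rho was -0.24 for span, -0.21 for exon number, -0.18 for the longest intron and -0.16 for exonic length.

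Depth and exonic length moved with exon number. Median reads per library rose from 249 in genes with fewer than 6 exons to 885 in those with at least 51, and rho between exon number and exonic length was 0.51. Within a class of exonic length, genes with at least 21 exons were lower in 11 of 37 against 10 of 107 with fewer exons from 6000 to 8000 bases, in 24 of 99 against 16 of 113 from 8000 to 12000, and in 29 of 105 against 3 of 54 at 12000 bases or more. Below 6000 bases the counts were 1 of 13 and 11 of 138. Other protein-coding genes had a like order, with 32.6% lower and 4.65% higher at 51 exons or more and a median of -0.11. Below 51 exons falls were scarcer in the very long genes than in the others, though their median was lower in each class. The shares lower were 24.6% against 35.0% from 31 to under 51 exons and 19.5% against 21.9% from 21 to under 31. They were 10.9% against 15.5% from 11 to under 21, 7.09% against 12.7% from 6 to under 11, and 10.5% against 16.8% with fewer than 6. With plain read totals 8 of the 36 genes of at least 51 exons were lower and 0 higher, with a median of -0.12, with TPM 9 and 0, with voom 26 and 0, and without the libraries numbered 3 8 and 0.

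**Figure D3:**
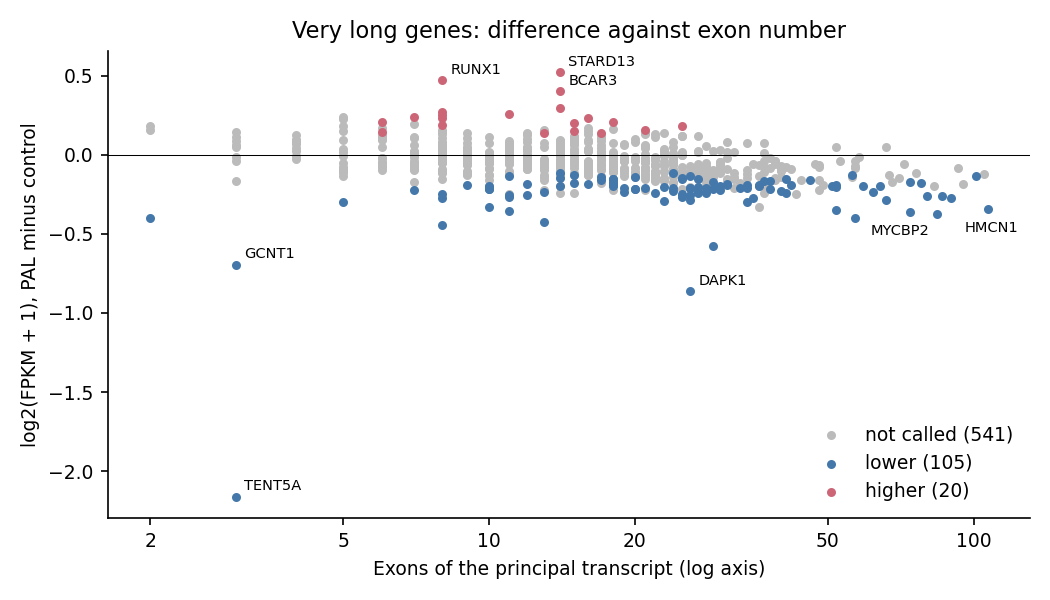
Difference of each very long gene, PAL minus control on the log2(FPKM + 1) scale (vertical axis), against the number of exons of its principal transcript (horizontal log axis), coloured by limma call. Genes with at least 51 exons lie mostly below 0, with 19 of 36 called lower and 0 higher; with plain read totals 8 were lower and 0 higher.

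Genes of many exons gave several of the clearest falls. MYCBP2, a giant ubiquitin ligase of 84 exons at chr13:77044655-77327050, stood at 5.56, 5.74 and 5.74 FPKM in control and 4.08, 4.08 and 4.31 in PAL. The groups did not overlap, and the difference was -0.37 ± 0.04 (SE, adjusted p = 0.00156). UTRN, the dystrophin relative utrophin, with 74 exons at chr6:144285701-144853034, stood at 5.18, 5.18 and 4.70 against 3.53, 3.65 and 3.85 FPKM, a difference of -0.36 ± 0.05 (adjusted p = 0.00469). All 3 PAL libraries of both genes were below all 3 control libraries.

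DOCK1, an exchange factor that activates Rac, with 52 exons at chr10:126905409-127452517, had the tightest replicates of these. It stood at 10.2, 10.4 and 10.2 FPKM in control and 7.76, 7.89 and 7.92 in PAL, a difference of -0.35 ± 0.03 (adjusted p = 7.49e-04). ITPR2, a calcium release channel of the endoplasmic reticulum with 57 exons at chr12:26336515-26833198, stood at 2.24, 2.51 and 2.44 against 1.53, 1.64 and 1.55 FPKM (difference -0.40 ± 0.06, adjusted p = 0.00514). USP34, a deubiquitinase of 80 exons, stood at 8.56, 9.27 and 8.56 against 7.31, 6.96 and 7.28 FPKM (adjusted p = 0.00761). MACF1, a cytoskeletal gene of 101 exons, averaged 6.68 ± 0.156 FPKM in control and 6.01 ± 0.0747 in PAL (difference -0.13, adjusted p = 0.0437). Its call was lost in 12 alternatives, plain totals (0.277) and TPM (0.222) among them. HMCN1, the matrix protein hemicentin with 107 exons, the most of all, stood at 2.08, 2.25 and 2.23 against 1.56, 1.44 and 1.53 FPKM (adjusted p = 0.00807), and missed the threshold without the libraries numbered 3 (adjusted p = 0.0533). DST, the cytoskeletal linker dystonin with 95 exons, averaged 1.88 ± 0.066 against 1.53 ± 0.063 FPKM and was not called (difference -0.19, adjusted p = 0.0630), but it was with voom (adjusted p = 2.13e-04), without a variance trend (0.0200) and among protein-coding genes alone (0.0304).

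The single largest fall came from a gene that is long in annotated span but short in its principal transcript. TENT5A, a non-canonical poly(A) polymerase at chr6:81491439-81752774, spans 261335 bases, but its principal transcript of 3 exons spans 6978. It stood at 12.1, 13.4 and 14.6 FPKM in control and 2.26, 1.74 and 2.70 in PAL. Every control library was above every PAL library, the ratio of means was 5.99, and the difference was -2.16 ± 0.12 on the log2(FPKM + 1) scale (adjusted p = 5.31e-05). It was the 1 very long gene that fell at least 2-fold on that scale.

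Such genes were common: in 134 of the 666 the principal transcript spanned less than 200000 bases, in 48 less than 100000 and in 21 less than 50000. Of the 134, 5 were called higher and 20 lower, with a median of -0.05, and of the other 532, 15 and 85, with a median of -0.06. Of the 48 under 100000 bases 0 were called higher and 11 lower by limma. Defining the genes by the principal transcript therefore left the share of rises at a like size. CCNG2, the atypical cyclin G2, with a principal transcript of 12908 bases, stood at 2.13, 2.31 and 2.19 FPKM in control and 1.41, 1.24 and 1.45 in PAL (difference -0.44, adjusted p = 0.00451). GCNT1, an enzyme that branches O-glycans, with one of 65748 bases, stood at 1.09, 1.44 and 1.74 against 0.452, 0.505 and 0.505 (difference -0.70 ± 0.11, adjusted p = 0.00556), and had met the level through control alone. PGK1, a glycolytic kinase and the most abundant of all 666 per length, has one of 25122 bases. It stood at 150, 151 and 154 against 139, 136 and 139 FPKM (difference -0.14, adjusted p = 0.00594), a call that was lost with TPM (0.0800), plain totals (0.115) and quantile normalization (0.225).

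**Figure D4:**
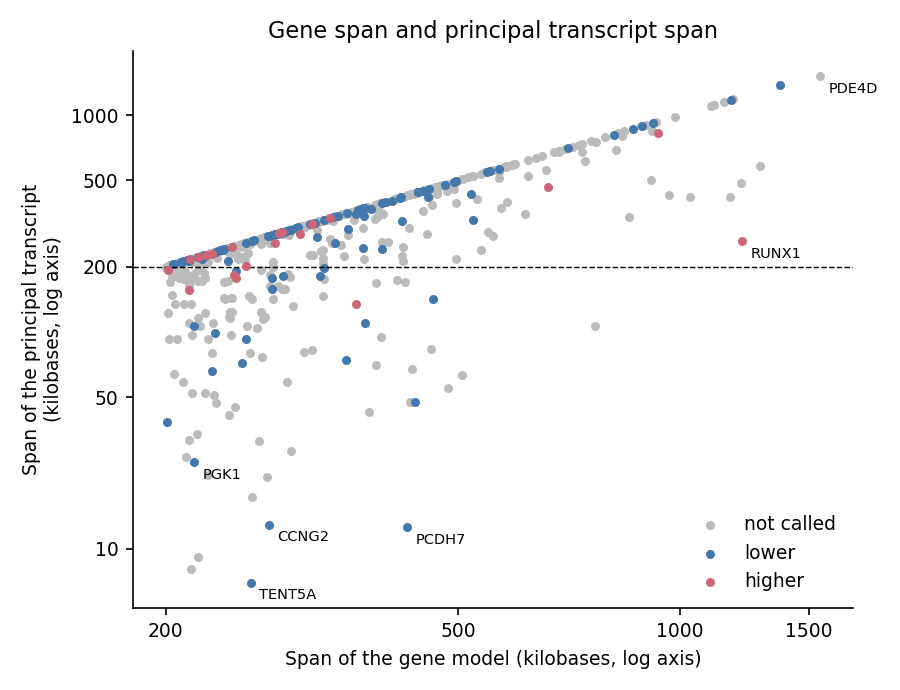
Span of the principal transcript (vertical log axis, kilobases) against span of the gene model (horizontal log axis, kilobases) for the 666 genes, coloured by limma call, with a dashed line at 200 kilobases. Below the line lie 134 genes, TENT5A, CCNG2, PCDH7 and PGK1 among them.

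DAPK1, a calcium and calmodulin dependent kinase that promotes cell death, had the second largest fall on the log2(FPKM + 1) scale. At chr9:87497228-87708633, with a principal transcript of 26 exons over nearly the whole span, it stood at 1.64, 1.79 and 1.95 FPKM in control and 0.446, 0.592 and 0.567 in PAL. The groups were far apart, with a ratio of 3.35 and a difference of -0.86 ± 0.08 (adjusted p = 6.96e-04), on a mean of 165 reads per library. It too had met the level through the control libraries alone. ABCB1, the drug efflux pump P-glycoprotein, stood at 1.60, 1.81 and 2.34 against 0.702, 1.17 and 0.991 FPKM (difference -0.58 ± 0.13, adjusted p = 0.0178). That call was lost without the libraries numbered 3 (0.0778), with no filter on level (0.0654) and without PAL replicate 1 (0.0508).

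Among 33 genes of adhesion, axon guidance and matrix, 1 was called higher and 6 lower (18.2%, against 14.5% of all genes tested), with a median of -0.07. This list and the next ones, up to the fragile sites, are parts of the 666 genes. Of these 666, 3.00% were called higher and 15.8% lower. PCDH7, a protocadherin, averaged 1.77 ± 0.131 FPKM in control and 1.10 ± 0.155 in PAL (difference -0.40, adjusted p = 0.0135). Its call was lost without the libraries numbered 3 (0.0726), with no filter (0.0505) and without control replicate 2 (0.0501). In the whole list 1 fall and 0 rises passed without the libraries numbered 3, plain totals gave 3 of each, and voom 11 falls and 3 rises. The background moved with the setting too, here and for the lists below. Of all genes tested, 25.3% rose and 9.22% fell with plain totals, and 13.7% and 18.1% with voom. Without the libraries numbered 3 these shares were 7.66% and 10.9%.

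The 48 genes of the cytoskeleton and of cell polarity had 14 falls (29.2%) and 0 rises, with a median of -0.11. Of all genes tested 14.5% fell and 11.4% rose, and of the 666 very long genes 15.8% and 3.00%. This list had a median of 25 exons and 849 reads per library, against 17 and 480.5 over the 666 genes. PARD3, a scaffold of the polarity complex at chr10:34109560-34815325, stood at 7.83, 7.44 and 7.48 FPKM in control and 6.24, 6.06 and 6.15 in PAL. No PAL library reached the lowest control library, and the difference was -0.26 ± 0.04 (adjusted p = 0.00426). CTNNA1, alpha-catenin of adherens junctions, stood at 63.0, 64.0 and 61.3 against 57.2, 55.0 and 56.7 FPKM (difference -0.15, adjusted p = 0.00940), but was not called with TPM (0.0938), plain totals (0.112) or quantile normalization (0.0685). Without the libraries numbered 3 the list had 10 falls and 0 rises, with plain totals 5 falls and 3 rises, and with voom 20 falls and 1 rise.

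Of 38 regulators of small GTPases, 6 were lower (15.8%, against 14.5% of all genes tested) and 1 higher, with a median of -0.09. The rise was STARD13, a RhoGAP at chr13:33103135-33350630, which stood at 2.81, 2.78 and 2.10 FPKM in control and 4.29, 3.86 and 4.15 in PAL. Control replicate 3 was lower than the other controls, and all PAL libraries were above all of them. The ratio of means was 1.60 and the difference 0.52 ± 0.09 (adjusted p = 0.00761). Without the libraries numbered 3 the list had 1 rise and 1 fall, with plain totals 4 rises and 3 falls, and with voom 1 rise and 14 falls.

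Kinases, phosphatases and receptors, 55 genes, had 5 falls (9.09%, against 14.5% of all genes tested) and 2 rises with a median of -0.06. There were 1 fall and 6 rises with plain totals, 2 falls and 1 rise without the libraries numbered 3, and 15 falls and 3 rises with voom. CDK6, a kinase of cell cycle entry at chr7:92604921-92836594, stood at 15.4, 15.9 and 15.4 FPKM in control and 18.0, 18.8 and 18.5 in PAL. The groups did not overlap, and the difference was 0.23 ± 0.03 (adjusted p = 0.00328). IGF1R, the receptor of insulin-like growth factors, stood at 8.06, 7.71 and 7.89 against 9.05, 8.86 and 8.73 FPKM (difference 0.15, adjusted p = 0.0235). That call was lost in 5 alternatives: without PAL replicate 1 (0.0814), PAL replicate 2 (0.0709) or control replicate 2 (0.0743), without both libraries numbered 3 (0.0751) and with a replicate block (0.0631).

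The melanoma oncogene BRAF was among the low genes of that list. It stood at 1.26, 1.31 and 1.17 FPKM in control and 1.11, 1.08 and 1.17 in PAL, where the groups came within rounding of each other, and was not called (difference -0.09 ± 0.07, adjusted p = 0.390). PRKCA, protein kinase C alpha, averaged 4.25 ± 0.0625 and 4.21 ± 0.0498 FPKM and was not called either (adjusted p = 0.853).

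The 75 transcription factors and chromatin genes held the most rises of these lists, 5 (6.67%), beside 9 falls (12.0%), with a median of -0.02. Of all genes tested 11.4% rose and 14.5% fell, and of the 666 very long genes 3.00% and 15.8%. With plain totals there were 11 rises and 5 falls, with voom 8 rises and 15 falls, and without the libraries numbered 3 there were 1 rise and 5 falls. RUNX1, a transcription factor of the Runt family at chr21:34787801-36004667, stood at 4.70, 4.55 and 4.37 FPKM in control and 6.30, 6.84 and 6.92 in PAL. Every PAL library was above every control library, and the difference was 0.47 ± 0.05 (adjusted p = 0.00117). Its annotated span is 1216866 bases, but its principal transcript, which spans 261543, covers a smaller part. GLI2, a transcription factor of hedgehog signalling, stood at 2.51, 2.42 and 2.26 against 3.05, 3.30 and 3.17 FPKM (difference 0.30, adjusted p = 0.0106), and CDYL, a chromodomain protein, averaged 4.64 ± 0.239 against 5.65 ± 0.0801 (difference 0.24, adjusted p = 0.0121). Both missed the threshold without the libraries numbered 3, at 0.0621 and 0.0677.

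BACH1, a repressor of heme oxygenase and other antioxidant genes, was among the falls. It stood at 5.08, 5.12 and 5.10 FPKM in control and 4.18, 3.63 and 4.09 in PAL (difference -0.30 ± 0.06, adjusted p = 0.00986), and it overlaps 2 other tested genes. TCF12, a helix-loop-helix factor, stood at 15.8, 14.6 and 14.2 against 12.9, 12.3 and 12.8 FPKM (difference -0.21, adjusted p = 0.0178), a call lost with TPM (0.0680), with plain totals (0.0717) and without PAL replicate 2 (0.0653). MITF, the melanocyte lineage factor, stood at 2.38, 2.40 and 2.32 against 2.12, 2.38 and 2.25 FPKM, where the groups overlapped, and was not called (difference -0.05 ± 0.06, adjusted p = 0.557). WWTR1, the coactivator TAZ and the highest gene of this list, stood at 75.5, 72.7 and 68.1 against 75.6, 70.8 and 74.0 FPKM, and was not called (adjusted p = 0.686).

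RNA binding and processing genes, 20 in all, had 5 falls (25%, against 14.5% of all genes tested) and 0 rises with a median of -0.07. EIF4G3, a scaffold of translation initiation, averaged 16.3 ± 0.326 FPKM in control and 14.2 ± 0.258 in PAL (difference -0.18, adjusted p = 0.00790). With plain totals the list had 1 fall, without the libraries numbered 3 it had 2, and with voom 6.

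The 58 genes of ubiquitin, membrane traffic and transport had 10 falls (17.2%, against 14.5% of all genes tested) and 1 rise with a median of -0.11, USP34 among the falls. AP3B1, a subunit of the adaptor that sorts cargo to melanosomes and lysosomes, stood at 10.9, 10.8 and 10.7 FPKM in control and 9.03, 8.63 and 9.36 in PAL (difference -0.24 ± 0.04, adjusted p = 0.00610), with no overlap. EXOC4, an exocyst subunit, averaged 6.86 ± 0.188 against 5.85 ± 0.148 FPKM (difference -0.20, adjusted p = 0.0141). Its call was lost without the libraries numbered 3 (0.0568), with plain totals (0.0570) and without control replicate 2 (0.0518). The list had 5 falls and 1 rise without the libraries numbered 3, 3 falls and 1 rise with plain totals, and 21 falls and 1 rise with voom.

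The 13 genes of common fragile sites had 3 falls (23.1%, against 14.5% of all genes tested) and 0 rises by limma, with a median of -0.12. There were 0 calls with plain totals or without the libraries numbered 3, and 6 falls with voom. In 9 of the 13 every PAL library was below every control library, against 37.1% of the 666 very long genes and 23.6% of all genes tested. EXOC4, given above, was 1 of the 3. PDE4D, a cyclic AMP phosphodiesterase and the longest of all at 1553082 bases, stood at 1.35, 1.44 and 1.35 FPKM in control and 1.11, 1.18 and 1.20 in PAL. The groups did not overlap, yet it was not called (difference -0.14, adjusted p = 0.171), except with voom (0.0230) and without a variance trend (0.0447). WWOX, a tumour suppressor spanning 1113254 bases, averaged 1.85 ± 0.297 and 1.61 ± 0.133 FPKM and was not called (adjusted p = 0.373). IMMP2L, a mitochondrial inner membrane peptidase of 899466 bases, averaged 2.47 ± 0.409 and 2.47 ± 0.0881 and was not called (adjusted p = 0.970). CDKAL1, a transfer RNA modifying enzyme, averaged 3.52 ± 0.0388 and 3.26 ± 0.0467 (adjusted p = 0.193).

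Lists took in 331 of the 666 genes, with 10 rises, 55 falls and a median of -0.07. The other 335 had 10 rises, 50 falls and a median of -0.05. Median exon number differed by list: 25 for cytoskeleton, 22 for small GTPase regulators and for ubiquitin and traffic, and 18 for adhesion and for kinases. It was 17 for fragile sites, 16.5 for RNA binding and 13 for transcription factors. The part of exon number or depth in the list shares was not tested. Among the 335 genes in no list, BCAR3, an adaptor of adhesion signalling at chr1:93561786-93847150, stood at 14.8, 14.3 and 13.0 FPKM in control and 18.5, 18.8 and 19.1 in PAL. The groups were well apart, with a difference of 0.40 ± 0.05 (adjusted p = 0.00176). APP, the amyloid precursor protein, stood at 90.2, 89.6 and 88.7 against 81.1, 79.4 and 80.9 FPKM (difference -0.15, adjusted p = 0.00414), but was not called with TPM (0.0513), plain totals (0.0610) or quantile normalization (0.121).

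**Figure D5:**
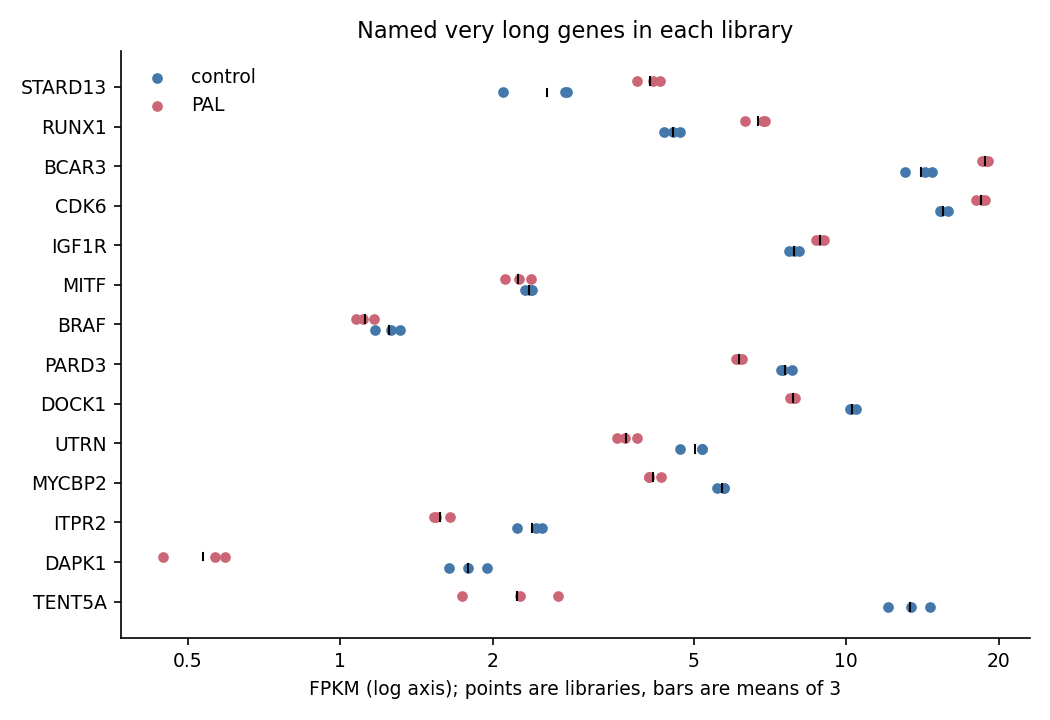
FPKM of named very long genes (rows) in each library (horizontal log axis), with points for the 3 control and 3 PAL libraries and bars for the means. In TENT5A and DAPK1 the PAL points lie far below the control points, in STARD13, RUNX1, BCAR3 and CDK6 above them, in MITF they overlap and in BRAF they nearly touch.

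Transcription elongation factors, the machinery on which such genes depend, were read from a list of 75 genes, of which 72 were tested. Of these 7 were called higher (9.72%, against 11.4% of all genes tested) and 17 lower (23.6%, against 14.5%), with a median of -0.04. The list had a median of 13.5 FPKM and 1414 reads per library, against 6.18 and 504 over all genes tested. From 10 to 20 FPKM, 20.4% of protein-coding genes outside the 666 were called lower and 14.3% higher. The part of level or depth in the shares of the list was not tested. With plain totals 18 genes of the list were higher and 12 lower, where 25.3% and 9.22% of all genes tested were called. Without the libraries numbered 3 the counts were 6 and 17, against backgrounds of 7.66% and 10.9%. With voom they were 8 and 24, against 13.7% and 18.1%. PCF11, which couples termination to polyadenylation, had the largest fall on the log2(FPKM + 1) scale, from 6.05 ± 0.541 to 3.58 ± 0.210 FPKM (difference -0.62 ± 0.07, adjusted p = 0.00133). CTR9, a subunit of the elongation complex PAF1, averaged 20.1 ± 0.779 and 13.1 ± 0.723 FPKM (adjusted p = 3.62e-04), ELL2, of the super elongation complex, 6.84 ± 0.754 and 4.29 ± 0.229 (adjusted p = 0.00311), and HEXIM1, the inhibitor of CDK9, 49.3 ± 2.27 and 33.7 ± 0.450 (adjusted p = 1.49e-04).

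The kinases and topoisomerases moved less. CDK12 averaged 12.9 ± 0.609 FPKM in control and 10.9 ± 0.235 in PAL (adjusted p = 0.00915), TOP2B 32.6 ± 0.720 and 26.3 ± 0.796 (adjusted p = 0.00129), and TOP1 93.4 ± 2.52 and 86.1 ± 2.56 (adjusted p = 0.0364). POLR2A, the largest subunit of the polymerase, averaged 48.5 ± 2.56 and 42.1 ± 0.954 (adjusted p = 0.0149). CDK9 itself averaged 19.0 ± 0.435 and 21.0 ± 1.69 and was not called (adjusted p = 0.133). Its cyclin CCNT1 rose from 7.83 ± 0.126 to 10.5 ± 0.562 (adjusted p = 0.00171), and ZC3H4, which restricts unproductive transcription, from 6.16 ± 0.415 to 10.4 ± 0.480 (adjusted p = 3.62e-04). The part of these genes in the differences of very long genes was not tested.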

How the data were processed

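Poly-A enriched RNA of A375 was sequenced in 3 PAL and 3 control libraries, with groups taken from the sample titles. The authors' deposited table holds FPKM values, 1 per gene and library, beside each gene's position, length and biotype, per the file headers. Per the submitters' processing notes the build was hg38. Neither the aligner nor the use of strand is given in the sources used here. All 58735 genes had the start and end of GENCODE release 29, and their length equalled the union of exons, so exon numbers and the principal (APPRIS) transcript were taken from that release. FPKM values times gene length were whole multiples of 1 step per library for 100% of values (tolerance 0.01), which gave reads and depth.

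The 12258 genes that reached 1 FPKM in 3 or more libraries were tested with limma 3.58.1 in R 4.3.3 on log2(FPKM + 1), two-sided, with a variance that follows expression and Benjamini-Hochberg adjustment at 0.05. This scale understates the change of low genes. Medians and counts per list or bin are descriptions. Alternatives covered the pseudocount, filter, scaling, variance model, replicate block, voom on recovered reads and left-out libraries. Leaving out both libraries numbered 3 and measuring span on the principal transcript were chosen after seeing the data. The genes, role lists and elongation list were chosen with earlier results of these data known.

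Named genes were members among the 10 largest rises and falls, and up to 2 of each per list (or the 2 highest by FPKM). Those rises and falls were taken from genes that were called and had no overlap between groups. The 5 longest, the 5 highest, a fixed set and the genes at the thresholds were added. That gave 59, of which part are named. ITGA9 is named for the way it met the level, after its values were seen. From the elongation list the rule takes up to 5 rises and 5 falls, POLR2A, CDK9, CDK12, TOP1 and TOP2B. Promoters came from RefSeq. Figures were drawn with matplotlib 3.10.9.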

Additional observations from a re-analysis of the deposited data

How the results depend on the processing

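Counts of very long genes called higher and lower, 20 and 105 with the deposited scaling, moved with several settings. They were 48 and 45 with TPM, 54 and 43 with plain read totals, 34 and 183 with voom, 9 and 54 with no filter, and 6 and 52 without both libraries numbered 3, an alternative added after seeing the data. At a mean of at least 5 FPKM 61 of 241 were lower. Leaving out 1 library gave 7 to 13 rises and 41 to 92 falls. Spans of at least 100000, 300000 and 500000 bases gave 64 and 307 of 1912, 7 and 55 of 297, and 3 and 12 of 84. The median difference was -0.0610 with the deposited scaling, -0.00837 with TPM, 0.00441 with plain totals, where it reversed, -0.0464 with quantile normalization, -0.0785 with pseudocount 0.1, -0.0781 with voom, -0.0754 without both libraries numbered 3, -0.0763 at 500000 bases or more, and -0.0749 to -0.0547 without 1 library. With a replicate block 7 were higher and 49 lower. Deviations of same-numbered libraries correlated at -0.02, 0.03 and -0.04, so no shared effect of the number was seen. Whether the libraries were paired is not stated, and these correlations cannot decide it. The cause of these movements was not tested, apart from the smaller sets of genes or libraries. Of 42 named called genes, 17 kept call and direction in every alternative run, 25 lost the call in at least 1 and 0 turned sign. Genes near 1 FPKM rest on few reads, down to a mean of 42.2 per library.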
